A study of Mus musculus with 12 samples.

Results

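The genes described here are 7 members of the TRIM (tripartite motif) family that are linked to interferon: Trim25, Trim14, Trim26, Trim21, Trim12c, Trim30a and Trim34a. They were chosen by symbol from the 23472 genes of the deposited count table, and all 7 were among the 13184 genes that passed the filter on low counts. The RNA was from LT-HSCs, the long-term stem cells that renew the blood system for life, taken from the marrow of C57BL/6 mice. There were 6 wt libraries, whose animals were cre-negative, and 6 libraries with the label Jak1 KO, whose animals were cre-positive. Both groups had received 4 doses of poly(I:C), an RNA mimic of viral infection that itself induces interferon, 4 to 6 weeks before the marrow was taken, so neither group was untreated. Each genotype held 3 libraries named VD (replicates 1 to 3) and 3 named ZL (replicates 4 to 6), called name sets here. The labels gave neither ages nor the exons removed from Jak1, and only the second group carried cre, so effects of cre and of a Jak1 deletion cannot be told apart. Separate animals were not stated for the replicates, and p-values therefore measure a spread between samples that could partly be technical.

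TRIM proteins carry a RING finger, B-box and coiled-coil in that order, and most are ubiquitin ligases. Many are made in response to interferon and act inside the cell, where some bind viral parts and others tune the pathways that sense viral nucleic acids. Type I interferon receptors signal through the kinases Jak1 and Tyk2 to a complex that holds Irf9. It binds a DNA element, the interferon-stimulated response element (ISRE), built on repeats of GAAA. Interferon gamma acts mainly through a different element, the gamma-activated site (GAS).

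The start sites of these genes are shown first because they carry what the members shared in sequence. RefSeq promoter windows of 300 bases (250 before to 50 after the start, GRCm38.p6) were matched by symbol for 6 of the 7 genes, Trim14 having no entry. Trim30a had windows at both of its starts, which made 7 windows. The ISRE core was read as GAAA, 2 bases of any kind and GAAA again and searched on both strands. It was in 6 of the 7 windows, against 3.44% of all 32851 windows. By gene it was in 5 of the 6, against 3.99% of all 27025 genes with a window. The members were chosen as linked to interferon, so a share above that of all genes is no independent result. The GAS letters TTCNNNGAA, which read the same on both strands, were in 0 of the 7, against 8.3% of all windows. The 30 bases around each match follow, 5′ to 3′ on the strand of the gene, with the matched letters in capitals.
Trim26 (chr17:36836979-36837008, plus strand): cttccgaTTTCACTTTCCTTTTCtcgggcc
Trim21 (chr7:102565447-102565476, minus strand): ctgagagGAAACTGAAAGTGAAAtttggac
Trim12c (chr7:104353359-104353388, minus strand): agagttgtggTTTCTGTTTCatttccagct
Trim30a, first start (chr7:104465210-104465239, minus strand): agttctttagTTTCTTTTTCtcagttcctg
Trim30a, second start (chr7:104446104-104446133, minus strand): ttgtttttagTTTCTTTTTCtcagttcctg
Trim34a (chr7:104244457-104244486, plus strand): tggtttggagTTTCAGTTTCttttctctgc
Trim25 (chr11:88999383-88999412, plus strand): cgcccctcctgTTCAGTTTCgattccttcc

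Trim26 and Trim21 each held a pair of overlapping copies, which is why their capitals run longer. In Trim21 the copies lay just after the start, from base 14 to base 29 (the start site being base 1), and in Trim34a the match lay from base 11 to base 20. In Trim12c it lay from base -29 to base -20 and at the first Trim30a start from base -36 to base -27. Trim25 held no full core. Its capitals mark the shorter core GAAANNGAA, which ended at base -1 and which 8.56% of all windows held. The full core contains this shorter letter run, so the searches overlap. The 100 bases before the start of the 2 genes with a match upstream of and close to the start show its place.
Trim12c (chr7:104353350-104353449, minus strand): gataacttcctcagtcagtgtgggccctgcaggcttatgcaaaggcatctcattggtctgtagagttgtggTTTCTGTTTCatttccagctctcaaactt
Trim30a (chr7:104465194-104465293, minus strand): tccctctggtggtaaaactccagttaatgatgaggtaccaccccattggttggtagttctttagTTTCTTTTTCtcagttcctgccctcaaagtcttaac
These matches are letters in a window and not measured binding sites. Of the 40 other TRIM genes tested, 30 had a window and 3 of those held the full core (Trim12a, Trim2 and Trim30d).

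**Figure D1:**
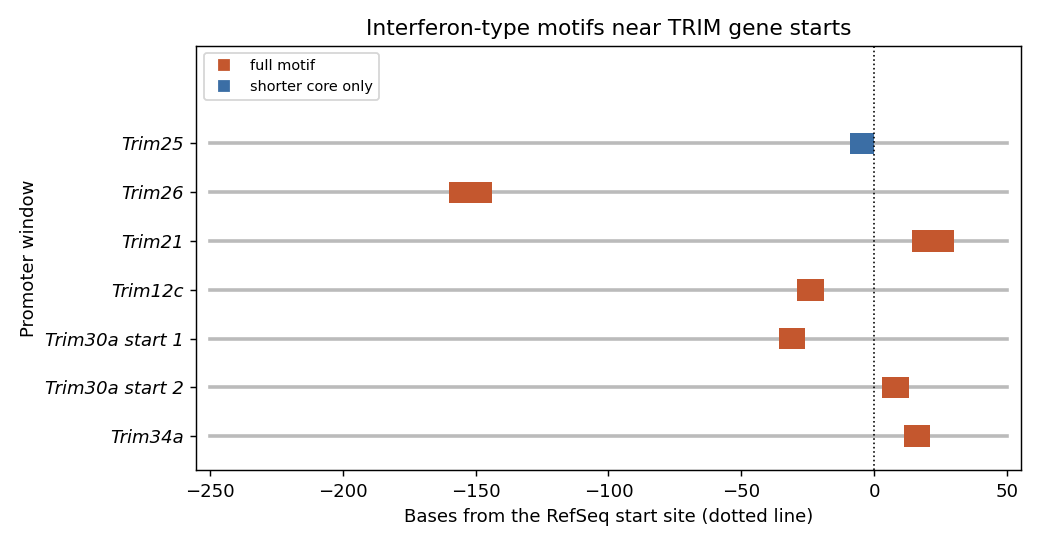
Position of the interferon-type motif in the 7 RefSeq promoter windows (horizontal axis, bases from the start site; grey line, window searched; orange, the full core; blue, the shorter GAAANNGAA only). In Trim12c and at the first Trim30a start the match lies just before the start, and in Trim21, Trim34a and at the second Trim30a start just after it.

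The 7 genes lie on 4 chromosomes. Trim34a (chromosome 7, 104244457 to 104262234), Trim12c (104338754 to 104353362) and Trim30a (104409025 to 104465193) are neighbours in the TRIM cluster of mouse chromosome 7, and Trim21 lies apart from them on the same chromosome (102557921 to 102565486). Trim14 lies on chromosome 4 (46493781 to 46536141), Trim25 on chromosome 11 (88999376 to 89020293) and Trim26 on chromosome 17 (36837134 to 36859398), by GENCODE M21 on GRCm38. Cluster genes arose by duplication, and their reads may be shared. Of all 50-base stretches in the transcripts of Trim34a, 39.8% also occurred in those of Trim34b, and 24.2% of those of Trim12c occurred in Trim5, which was not analysed here, and 6.38% in Trim12a. Trim30a shared 5.98% with Trim30d. The separate values of Trim34a and Trim12c are therefore uncertain. Trim21, Trim25 and Trim26 shared 0.216%, 0.295% and 1.15% with any other gene.

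Total counts ranged from 8989965 to 28701855 per library, and the members held 185 to 3919 counts per library, which puts counting error alone at 1.60% to 7.35% of a value. Jak1 stood at 321 to 435 normalised CPM (counts scaled to library size and a common depth) in wt and at 246 to 727 in the libraries labelled Jak1 KO, and since reads from exons outside the deleted part are counted too, this does not check the labels. Markers of LT-HSCs were present in all libraries (12 of 12 genes in the table, summing to 3372 to 5507 CPM in wt and 2672 to 5510 in the libraries labelled Jak1 KO). Summed megakaryocyte markers (5 genes) ran from 978 to 1356 CPM in wt and from 444 to 764 in the libraries labelled Jak1 KO. Of these 5 genes edgeR called 1. Whether this RNA came from the stem cells themselves or from other cells was not tested. Summed dendritic cell markers (5 genes, mostly Flt3, which early progenitors also express) ran from 27.0 to 37.6 and from 39.0 to 55.4 CPM. The ranges of B cell (28.2 to 68.6 and 29.3 to 143 CPM), T cell (1.90 to 3.67 and 1.13 to 8.91), erythroid (41.3 to 60.1 and 20.4 to 53.4, Hba-a1 at 0 counts throughout) and neutrophil and monocyte markers (477 to 1130 and 460 to 1210) overlapped. The part of these cells in the TRIM values was not tested. Among ZL libraries, wt 6, Jak1 KO 4 and Jak1 KO 6 lay farthest along the first principal component (66.9, -84.9 and 49.6) and had the lowest limma-voom quality weights of the 12 (0.215, 0.165 and 0.359).

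None of the 7 TRIM genes passed the test between genotypes. With edgeR's quasi-likelihood test and a Benjamini-Hochberg adjusted p of 0.05 over all genes, 0 of 7 were called, where 0.44% of all tested genes were (58 of 13184). At an unadjusted p under 0.05 there were 3 of 7, Trim12c, Trim21 and Trim30a, all with lower values in the libraries labelled Jak1 KO, where 2.66% of all genes were lower at that level. DESeq2 called 0 of the 7, where it called 126 of 13112 genes. Limma-voom with quality weights called 1, Trim12c, where it called 220 of 13184 genes. The log2 fold change was below 0 for 6 of the 7 and the median was -0.38, beside 51% of all tested genes below 0 and a median of -0.006. The 40 other TRIM genes tested, none of them called, also leaned low over the 12 libraries, with 75% below 0 and a median of -0.15. Fitted by name set, their median was 0.017 in VD alone and -0.14 in ZL alone. For the 7 members these medians were -0.19 and -0.47. In bulk RNA, fewer cells that express a gene and less RNA per cell cannot be told apart.

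**Figure D2:**
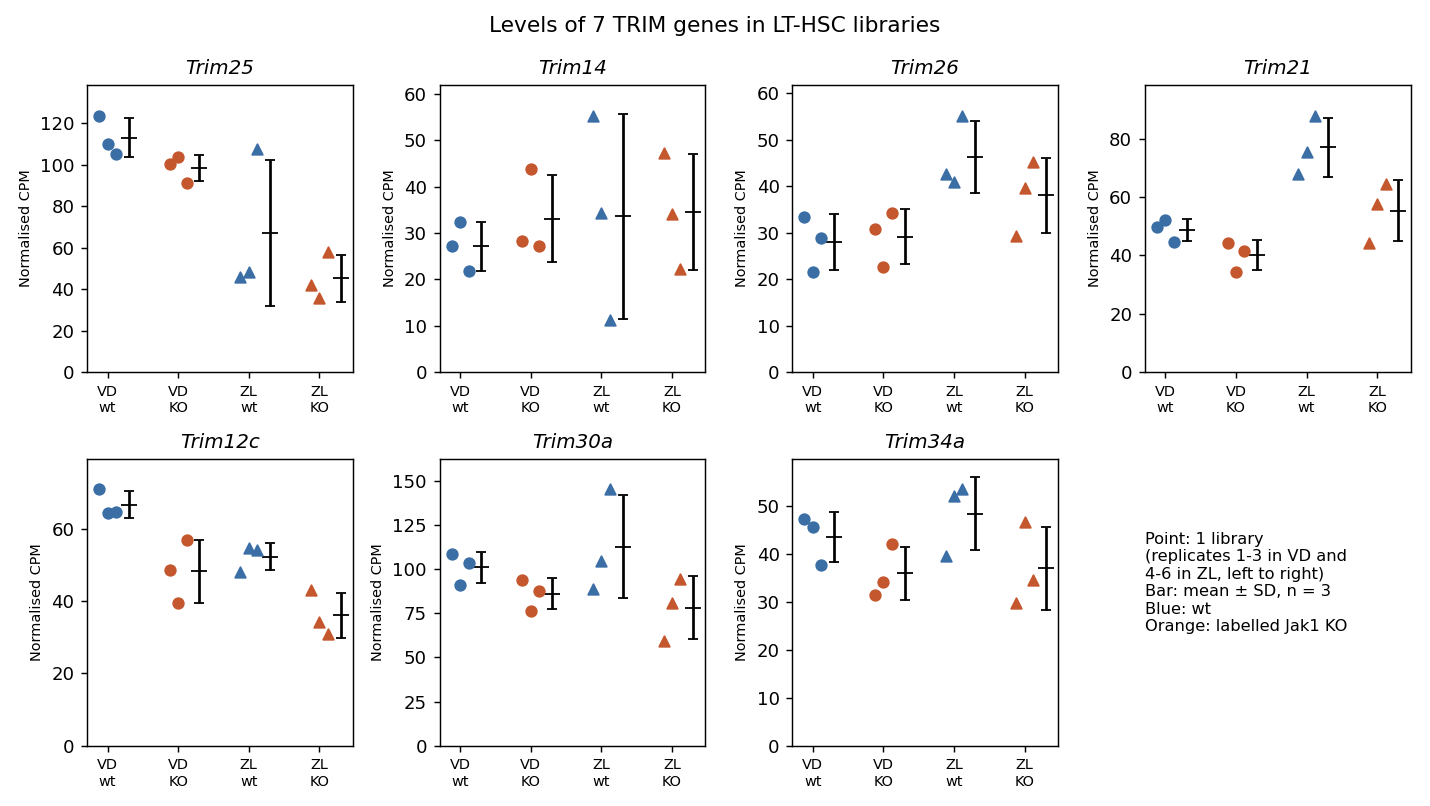
Normalised CPM (vertical axes, from 0) of the 7 genes in each of the 12 libraries, by name set and genotype (circles VD, triangles ZL, blue wt, orange labelled Jak1 KO; bars, mean ± SD, n = 3). Trim12c and Trim21 are the genes whose points do not overlap between genotypes in either set, and the ZL wt points run from 45.7 to 108 CPM in Trim25 and from 11.2 to 55.3 CPM in Trim14.

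Trim12c, a mouse relative of the TRIM5 proteins that bind retroviral capsids, came nearest to the threshold. In VD it stood at 70.8, 64.3 and 64.6 CPM in wt 1 to 3 and at 48.5, 39.4 and 56.8 CPM in Jak1 KO 1 to 3. The ZL values were 47.9, 54.6 and 54.2 CPM in wt 4 to 6 and 42.9, 34.3 and 30.9 CPM in Jak1 KO 4 to 6. Each of the libraries labelled Jak1 KO was below every wt library of its set, an arrangement that 0.963% of all tested genes showed, while over both sets the groups overlapped. The means were 59.4 ± 8.53 and 42.1 ± 9.51 CPM (SD, n = 6 each). Its log2 fold change was -0.50 (SE 0.14, 95% interval -0.81 to -0.19, edgeR adjusted p = 0.363), which left 70.7% of the wt level. The size was similar in VD (-0.42, SE 0.14) and in ZL (-0.53, SE 0.27), and the difference between the sets was -0.07 (SE 0.30, edgeR interaction adjusted p = 0.988). With limma-voom it was lower past the threshold (-0.53, adjusted p = 0.00909), while edgeR without wt 6, Jak1 KO 4 and Jak1 KO 6 gave -0.46 (adjusted p = 0.223). In the 12 edgeR fits that left out 1 library it never passed (adjusted p from 0.140 to 0.836).

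Trim21, the cytosolic antibody receptor that directs antibody-coated virus to the proteasome, showed the same arrangement. It stood at 49.7, 52.2 and 44.6 CPM in wt 1 to 3 and at 44.4, 34.3 and 41.7 CPM in Jak1 KO 1 to 3. In ZL it stood at 67.8, 75.4 and 88.0 CPM in wt 4 to 6 and at 44.1, 57.6 and 64.5 CPM in Jak1 KO 4 to 6. The groups did not overlap in either set, though in VD the gap was narrow, from 44.4 in Jak1 KO 1 to 44.6 in wt 3. The log2 fold change was -0.38 (SE 0.15, 95% interval -0.69 to -0.06, edgeR adjusted p = 0.825), and within the sets it was -0.24 (SE 0.15) in VD and -0.47 (SE 0.26) in ZL. A list of 9 genes set beside it held, among others, the segregase Vcp, the ubiquitin-conjugating enzymes Ube2n, Ube2w and Ube2v2, and Fcgrt. EdgeR called 0 of 9, with 0 at an unadjusted p under 0.05, 0 with DESeq2 and 0 with limma-voom. Fcgrt, the neonatal antibody receptor, stood at 38.2 and 52.0 CPM (log2 fold change 0.39, SE 0.21) and Vcp at 183 and 152 CPM (-0.26, SE 0.19).

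Trim30a, which restrains Toll-like receptor signalling by promoting loss of the Tab2 and Tab3 adaptors, stood at 109, 91.3 and 103 CPM in wt 1 to 3 and at 94.1, 76.5 and 87.7 CPM in Jak1 KO 1 to 3. In ZL it stood at 88.6, 104 and 145 CPM in wt 4 to 6 and at 59.1, 81.1 and 94.5 CPM in Jak1 KO 4 to 6. In each set 2 of the 3 Jak1 KO libraries were below all wt libraries, and Jak1 KO 1 and Jak1 KO 6 were inside the wt range. The share of all genes with this arrangement was not counted, so no weight is put on it. The log2 fold change was -0.38 (SE 0.16, 95% interval -0.73 to -0.03, edgeR adjusted p = 0.902), with -0.19 in VD and -0.52 in ZL. It was -0.26 without wt 6, the highest library, and -0.25 without Jak1 KO 4, the lowest. Of 17 genes of the TAK1 and NF-kappaB pathway below these receptors, edgeR called 0, with 0 at an unadjusted p under 0.05, 0 with DESeq2 and 0 with limma-voom. Tab2 stood at 112.5 and 112 CPM and Tab3 at 22.4 and 20.7 CPM, and the smallest p of the list belonged to the adaptor Myd88 (86.4 and 76.3 CPM, log2 fold change -0.21, SE 0.13) and to Ube2n (56.1 and 51.0 CPM, -0.19, SE 0.15).

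Trim34a, the third cluster member, stood at 47.2, 45.7 and 37.6 CPM in wt 1 to 3 and at 31.5, 34.2 and 42.0 CPM in Jak1 KO 1 to 3. The ZL values were 39.6, 51.9 and 53.4 CPM in wt 4 to 6 and 29.8, 46.6 and 34.4 CPM in Jak1 KO 4 to 6. Jak1 KO libraries were below all wt libraries in 2 of 3 cases in each set, and the third overlapped. For this arrangement too the share of all genes was not counted. Its log2 fold change was -0.33 (SE 0.16, 95% interval -0.67 to 0.01, edgeR adjusted p = 0.945), with -0.24 in VD and -0.38 in ZL. An antisense gene model, Gm47248, covers 23.5% of its exon bases in GENCODE, and without a stated strand setting reads of the pair cannot be told apart.

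The other genes of the cluster and its surroundings were compared in the same fit. Of 10 listed neighbours, 8 were tested and edgeR called 0, with 0 at an unadjusted p under 0.05, 0 with DESeq2 and 0 with limma-voom. Their median log2 fold change was -0.10. Trim12a, the close relative of Trim12c, stood at 42.3 ± 6.03 and 35.9 ± 6.39 CPM (log2 fold change -0.23, SE 0.16). Trim30d stood at 34.2 and 30.5 CPM (-0.18), Trim30b at 16.0 and 15.1 (-0.09), Trim6 at 28.8 and 26.8 (-0.11), Trim68 at 27.4 and 29.9 (0.12) and Trim3 at 15.7 and 16.2 (-0.03). Trim34b and Trim66 were near the limit of detection, at 0.963 and 0.585 CPM and at 0.699 and 1.06 CPM.

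Trim25, the ubiquitin ligase known for helping the RNA sensor RIG-I, differed in level between the name sets and varied widely within ZL. The VD means were 113 ± 9.47 CPM in wt and 98.4 ± 6.39 CPM in the libraries labelled Jak1 KO (SD, n = 3). In ZL they were 67.2 ± 35.2 and 45.2 ± 11.4 CPM. In VD it stood at 124, 110.2 and 105 CPM in wt 1 to 3 and at 100.4, 104 and 91.3 CPM in Jak1 KO 1 to 3, without overlap, an arrangement that 13.2% of all genes showed in VD. In ZL it stood at 45.7, 48.1 and 108 CPM in wt 4 to 6 and at 41.9, 36.0 and 57.9 CPM in Jak1 KO 4 to 6. There 2 of the 3 Jak1 KO libraries were below all wt libraries. The high values of the ZL set were those of replicate 6 in both genotypes, the libraries that shared the upper end of the first principal component. The log2 fold change was -0.39 (SE 0.21, 95% interval -0.85 to 0.07, edgeR adjusted p = 0.945), and it was -0.14 without wt 6.

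Trim14, which lacks a RING finger and acts as an adaptor at the mitochondrial protein Mavs, was the 1 member with a log2 fold change above 0. It stood at 27.2, 32.3 and 21.8 CPM in wt 1 to 3 and at 28.3, 43.8 and 27.2 CPM in Jak1 KO 1 to 3. In ZL it stood at 55.3, 34.3 and 11.2 CPM in wt 4 to 6 and at 47.3, 34.1 and 22.3 CPM in Jak1 KO 4 to 6. The genotypes overlapped in both sets, and replicate 6 was the lowest of its ZL group in both genotypes. The log2 fold change was 0.16 (SE 0.31, 95% interval -0.51 to 0.84, edgeR adjusted p = 0.952). It turned to -0.015 without wt 6 and was 0.43 without wt 4, so its direction rested on single libraries. In GENCODE 31.3% of the Trim14 exon bases overlap those of Nans, a sialic acid synthesis gene on the opposite strand, whereas the RefSeq models (Trim14 from 46505072, Nans up to 46503438) do not overlap. Nans stood at 74.1 and 71.2 CPM (log2 fold change -0.06), and its part in the Trim14 count was not tested.

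Trim26, a ubiquitin ligase reported to act on Irf3 and on signalling below Mavs, stood at 33.4, 21.5 and 28.9 CPM in wt 1 to 3 and at 30.7, 22.6 and 34.1 CPM in Jak1 KO 1 to 3. In ZL it stood at 42.6, 40.9 and 55.1 CPM in wt 4 to 6 and at 29.3, 39.7 and 45.1 CPM in Jak1 KO 4 to 6. The groups overlapped in both sets, though in ZL 2 of the 3 Jak1 KO libraries were below all wt libraries. Its log2 fold change was -0.11 (SE 0.18, 95% interval -0.50 to 0.28, edgeR adjusted p = 0.947), at 0.10 in VD and -0.28 in ZL, and it was 0.016 without Jak1 KO 4.

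**Figure D3:**
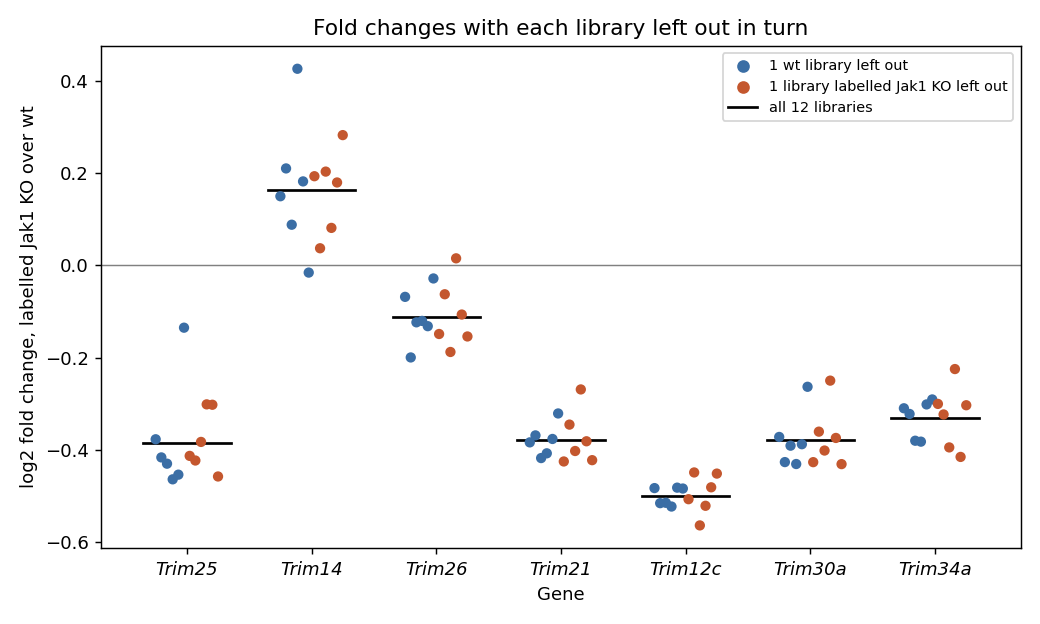
Log2 fold change (vertical axis) of each member with each of the 12 libraries left out in turn (blue, a wt library left out; orange, a library labelled Jak1 KO left out; black line, all 12 libraries). Trim12c keeps to -0.56 to -0.45, while Trim14 runs from -0.015 to 0.43 and Trim25 from -0.46 to -0.14.

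The sensing pathway that Trim25, Trim14 and Trim26 act in was compared through 21 listed genes. EdgeR found 2 of them lower and 0 higher, 19 did not pass, and the median log2 fold change was -0.16. At an unadjusted p under 0.05 edgeR had 7 of the 21 lower and 0 higher, DESeq2 called 3 lower and limma-voom 6. Irf7, the factor that amplifies type I interferon production, fell from 28.1 ± 11.6 to 6.80 ± 3.01 CPM. That was a log2 difference of -2.06 (SE 0.23, edgeR adjusted p = 0.000407). Dhx58, the RIG-I-like receptor LGP2, fell from 45.8 ± 10.3 to 25.8 ± 2.38 CPM (-0.81, SE 0.16, edgeR adjusted p = 0.0398). Not past the threshold were Isg15, the ubiquitin-like modifier (10.3 and 4.12 CPM, edgeR adjusted p = 0.123), and Uba7, its activating enzyme (465 and 321 CPM, adjusted p = 0.274). The RNA sensor Ddx58, the partner of Trim25 and chosen here after its value was seen, stood at 98.2 and 57.6 CPM, a log2 difference of -0.75 (SE 0.24, edgeR adjusted p = 0.521).

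Of 13 genes of the interferon receptors and the factors below them, 3 fell, 0 rose and 10 did not pass with edgeR (4 lower at an unadjusted p under 0.05, with DESeq2 and with limma-voom). Among them, Irf9 fell from 123 to 47.1 CPM (log2 difference -1.35, SE 0.14) and the interferon feedback protease Usp18 from 30.5 to 12.9 CPM (-1.23, SE 0.23). Irf1 stood at 152 and 95.3 CPM just outside the threshold (adjusted p = 0.0621). The 95% interval of Irf9 (-1.66 to -1.04) lay wholly below those of all 7 TRIM genes, whose lowest bound was -0.85 in Trim25. The interval of Usp18 (-1.72 to -0.74) reached into those of Trim25 and Trim12c. No test of these differences between genes was made.

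**Figure D4:**
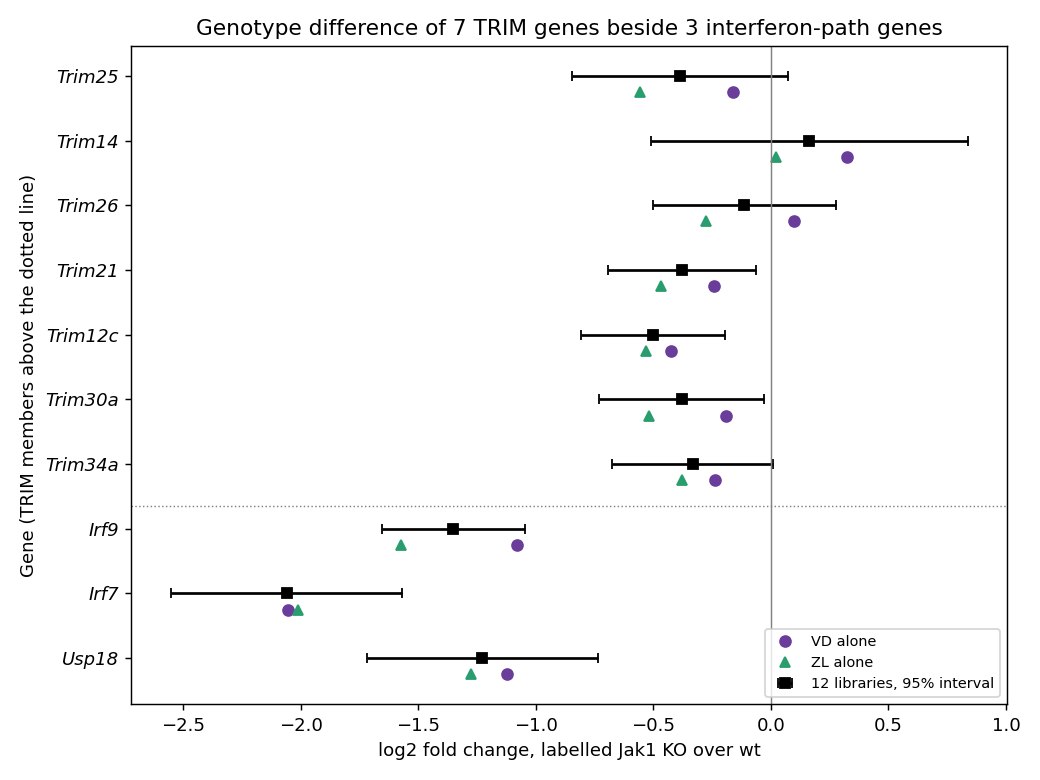
Log2 fold change (horizontal axis, libraries labelled Jak1 KO over wt) of the 7 TRIM genes and, below the dotted line, of Irf9, Irf7 and Usp18 (black squares, all 12 libraries with 95% interval; circles, VD alone; triangles, ZL alone). The TRIM estimates run from -0.50 to 0.16, and those of the 3 other genes from -2.06 to -1.23.

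The effect of genotype was not shown to differ between the name sets for any member. The ZL minus VD differences ran from -0.37 in Trim25 (SE 0.43) to -0.07 in Trim12c, and edgeR's interaction test called 0 of 7, with 0 at an unadjusted p under 0.05, where 0% and 1.38% of all genes passed at those levels. In VD alone edgeR called 0 of 7 (1.08% of all genes called), with 1 at an unadjusted p under 0.05, Trim12c, where 13.6% of all genes were. In ZL alone it called 0 of 7 (0% of all genes), with 0 at an unadjusted p under 0.05 (1.6% of all genes). SEs were larger in ZL, at 0.26 to 0.58, than in VD, at 0.10 to 0.21.

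Levels were compared between genes per kilobase of exon. In wt, Trim30a was highest, at 26.0 ± 4.94 CPM per kb (SD, n = 6), though its lowest library (21.5) lay below the highest Trim21 library (23.7). Trim34a (17.7 ± 2.46), Trim21 (16.9 ± 4.56), Trim12c (15.9 ± 2.28) and Trim25 (15.7 ± 5.93 CPM per kb) followed and overlapped each other. Trim14 (6.99 ± 3.41) and Trim26 (5.40 ± 1.72 CPM per kb) had the lowest means and did not differ beyond their spread. Their highest libraries (12.7 for Trim14 in wt 4 and 8.03 for Trim26 in wt 6) lay above the lowest Trim25 library (7.94 in wt 4). The Trim14 length includes the 31.3% of exon bases that overlap Nans and lie outside its RefSeq model, so its value depends on the model used. The places of Trim34a and Trim12c are uncertain too, since 59.7% and 33.7% of their 50-base stretches occur in other genes. In the libraries labelled Jak1 KO Trim30a was again highest, at 20.0 ± 3.25 CPM per kb, and Trim26 lowest, at 4.89 ± 1.16.

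Across the 12 libraries, with log2 CPM centred within each name set, the members did not share a single profile. Trim21 and Trim30a were most alike (Pearson r = 0.92), and Trim14 ran opposite to all 6 others (r from -0.80 with Trim30a to -0.24 with Trim12c). These points share their libraries and the depth and quality of each, and the coefficients are a description. The centring left the difference between genotypes in. A high r with a gene that was itself lower, such as Irf7 or Ifi27l1, therefore partly restates that difference. Over all tested genes with a mean of at least 1 CPM, the profiles most like Trim12c were those of Ifi27l1 (r = 0.97), an interferon-inducible gene that was lower past the threshold, and the interferon-inducible GTPase Irgm1 (r = 0.96). The genes most like Trim30a were Ddx58 (0.96) and Aacs (0.96), and those most like Trim21 were Tm9sf1 (0.96) and Nsf (0.96). Atl3 and Hcfc1 were nearest to Trim25, Bloc1s3 and Zfp775 to Trim14, Arhgap12 and Ceacam2 to Trim26, and Cops2 and 4933424G05Rik to Trim34a, with r from 0.88 to 0.96. With Irf7, r was 0.91 for Trim12c, 0.73 for Trim34a, 0.68 for Trim21, 0.59 for Trim30a, 0.48 for Trim25, 0.16 for Trim26 and -0.26 for Trim14.

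The rest of the TRIM family was tested in the same fit. The table held 62 other family genes, Pml (TRIM19), Mid1 and Mid2 included, of which 40 were tested. EdgeR called 0 of 40, with 0 at an unadjusted p under 0.05, 0 with DESeq2 and 0 with limma-voom. Their log2 fold changes ran from -0.73 to 0.54 with a median of -0.15 (0.017 in VD alone and -0.14 in ZL alone). Below 0 were 30 of 40 (75%), beside 51% of all tested genes and 6 of the 7 members. Among the 7 members 3 had an unadjusted p under 0.05, but these members were named with earlier results of the same libraries known, so the contrast with the rest of the family is a description.

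**Figure D5:**
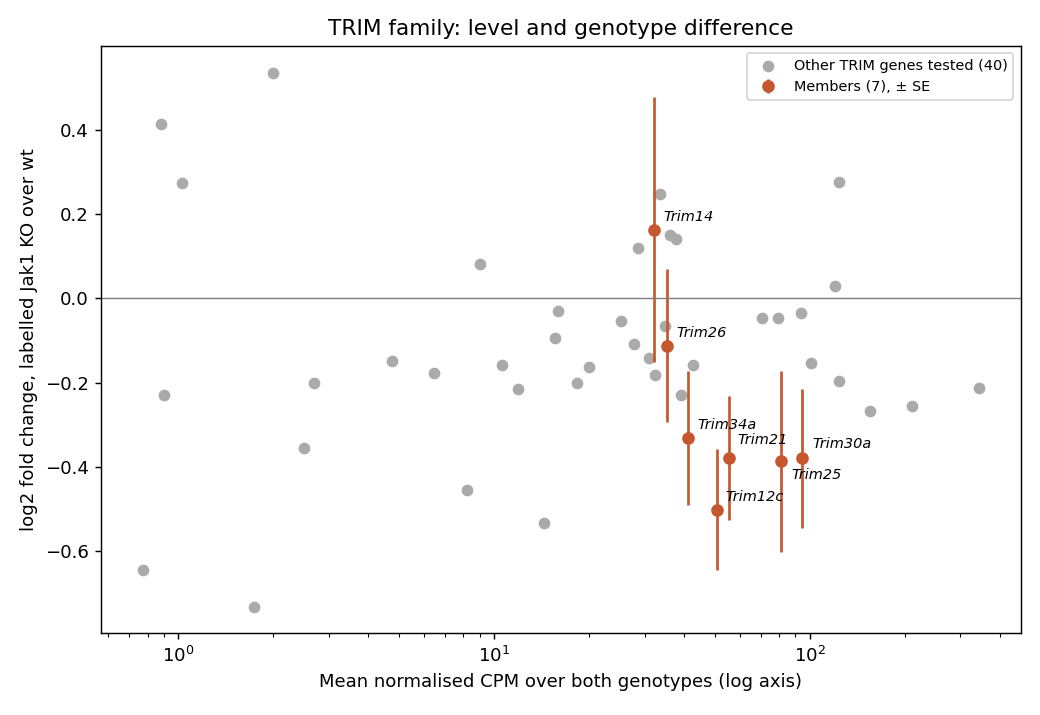
Log2 fold change (vertical axis) against mean normalised CPM over both genotypes (horizontal, log axis) for the 7 members (orange, ± SE) and the 40 other TRIM genes tested (grey). Of the members, 5 lie between -0.50 and -0.33, and the most extreme grey points belong to genes with low levels.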

How the data were processed

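The authors' deposited table holds raw counts of reads per gene, not normalised, for 12 poly-A libraries. Reads were handled with STAR 2.3.0e, Subread and featureCounts on mm10, per the submitters' processing notes. For annotation and strand the settings were not given in the sources used here. Columns were matched to samples by description and grouped by title (6 wt, 6 Jak1 KO). The main test was the quasi-likelihood F test of edgeR 4.0.16 (R 4.3.3) after filterByExpr and TMM scaling, with terms for name set and genotype, Benjamini-Hochberg over 13184 genes, threshold 0.05. Fold changes are log2, with SE the fold change over the square root of F. Log2 CPM had a prior count of 2. Depth ran from 8989965 to 28701855 counts. The 45S gene Rn45s took 14.8% to 22.6% of counts in VD and 0.511% to 0.95% in ZL and stayed in. Exon lengths came from GENCODE M21 and promoters from RefSeq GRCm38.p6. The fits were also run on simulated data, whose set changes were larger than any member's estimate. Recovery of changes of the members' size was therefore not tested.

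The members and lists were chosen with earlier results of these data known. Named by rule were the 7 members, all tested cluster neighbours, up to 4 genes per partner list by smallest p (2 where none passed) and the 2 nearest profiles per member. Ddx58, Nans, Tab2 and Tab3 were named after their values were seen. Alternatives were DESeq2 1.42.0 size factors and Wald test, limma-voom (limma 3.58.1) with quality weights, other filters, no set term, replicate block, each set alone, Rn45s left out and each library left out. Leaving out Jak1 KO 4, Jak1 KO 6 and wt 6 together was chosen after seeing the data. Single genes counted within a list are not all reported here.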

Additional observations from a re-analysis of the deposited data

Results flagged for a closer look

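In wt, Trim30a stood at 145 CPM in wt 6, far above the next highest library at 109 CPM, which was the 1 value among the members' 6-library groups whose gap to its neighbour was too wide for its group. Chance gives such a gap in about 1 in 20 groups. wt 6 also held the highest wt values of Trim21, Trim26 and Trim34a and the lowest of Trim14. Without it the log2 fold change of Trim30a was -0.26.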

How the results depend on the processing

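The number of genes past the threshold, 58 in all, was 126 with the DESeq2 Wald test, 220 with limma-voom and quality weights, 14 with no set term, 142 in VD alone, 0 in ZL alone (edgeR, 211 at an unadjusted p under 0.05), 96 without Jak1 KO 4, Jak1 KO 6 and wt 6, and 39 to 77 with 1 library left out. The cause of these shifts was not tested. The count of the 7 members past it was 0 throughout, apart from 1 with limma-voom, Trim12c (log2 fold change -0.53). Trim26 turned to 0.10 in VD alone, 0.059 without those 3 libraries and 0.016 without Jak1 KO 4 (range -0.20 to 0.016 with 1 library left out), and Trim14 to -0.015 without wt 6 (up to 0.43). The other 5 members kept their direction under every alternative run, but without those 3 libraries Trim34a moved from -0.33 to -0.14, Trim30a from -0.38 to -0.20, Trim25 from -0.39 to -0.22 and Trim21 from -0.38 to -0.25. The median of the list set beside Trim21 turned from -0.03 to 0.028 with DESeq2 size factors, which moved the median of all genes from -0.006 to 0.041. The shorter motif core was in 6 of 6 members with a window. With the replicate number as a block, 72 genes and 0 members passed. Deviations of same-numbered libraries correlated at 0.043 to 0.195 for replicates 1 to 5 (2 of the 6 under 0.1) and at 0.67 for replicate 6. Among the 3 libraries of the other genotype in their set, 6 of 12 libraries correlated best with their own number. No label pairs the numbers, and they were not taken as pairs. Counting error was at most 7.35% of a member's value, and the 6 libraries of a group, VD and ZL together, varied by 13.9% to 48.7% of their mean (SD).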

Other observations

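Of the 57 genes lower past the threshold, 35 had a RefSeq promoter window and 16 of those (45.7%) held the full ISRE core, against 3.77% of all tested genes with a window. Among those 16 the log2 fold changes centred on -1.74 (median), and among the lower genes whose window lacked the core on -1.35. Since the same libraries chose the 57, both medians are a description. All 369 tested genes with the core, whatever their change, centred on -0.064, beside -0.007 for tested genes with a window lacking it. The 5 TRIM genes with the core centred on -0.38, lower than the 369 and less low than the 16. These differences were not tested, and the members were named with earlier results known. Trim25, the member with a window but without the full core, had -0.39, within the range of the 5 that held it (-0.50 to -0.11). Trim12a, Trim2 and Trim30d, the other TRIM genes with the full core, had -0.23, 0.54 and -0.18, and none passed.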
